A study of Mus musculus with 6 samples.

Results

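The heat shock protein and DnaJ genes were examined in mouse colorectal tumours grown at different injection sites. Members were chosen by gene symbol alone: the Hspa and Hsph1 genes of the Hsp70 and Hsp110 families, the Hspb small heat shock protein genes, the Hsp90 genes, the mitochondrial chaperonin genes Hspd1 and Hspe1, and the Dnaja, Dnajb and Dnajc genes of J-domain cochaperones. Of 22180 genes with a probe set of their own, 66 were members. They comprised 14 Hsp70 and Hsp110 genes, 2 Hsp90 genes, 2 chaperonin genes, 7 small heat shock protein genes, 3 DnaJ class A, 12 class B and 26 class C genes. A further 6 names (Dnaja1, Dnajb8, Dnajc17, Dnajc19, Dnajc19-ps and Hspb2) matched only probe sets shared with another symbol and are not analysed here.

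Chaperones bind unfolded proteins and help them reach or keep their shape. Hsp70 proteins do so in cycles of ATP binding and hydrolysis: a DnaJ protein delivers the substrate and speeds hydrolysis through its J domain, and Hsp110 proteins help release the nucleotide. Small heat shock proteins hold unfolded proteins without ATP, Hsp90 finishes the folding of signalling proteins, and the Hspd1 and Hspe1 products form the folding chamber of mitochondria. Heat and other stresses release the transcription factor Hsf1, which binds repeats of the letters nGAAn in the promoters of the inducible members, whereas unfolded protein in the endoplasmic reticulum acts through a separate element.

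One group was 3 mouse colorectal tumours grown in white adipose tissue, where the body stores most of its fat. The other was 3 such tumours grown in non-adipose tissue. Both were started by injecting the cancer and were collected at 1 to 1.5 cm3. The labels number the tumours of each group as biological replicates, and each was hybridised to its own array. The labels name no cell line, mouse strain, age, or kind of non-adipose tissue, and they give no further treatment. The arrays were whole-transcript expression arrays, and each value is a probe set's signal on the log2 scale, so a difference of 1 is a 2-fold change. A probe set's level is compared only with its own level on other arrays, and a percentile among all genes is given only to mark a dim probe set.

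Array correlations over all genes lay between 0.983 and 0.995. Over the 6 arrays the epithelial markers Krt8 and Krt18 had signals of 9.46 to 10.04 and 9.14 to 9.85. Epcam, Cdx2 and Vil1 had 4.61 to 5.29, 5.08 to 5.63 and 4.39 to 4.88. There was no detection call to say whether any exceeded background. Of the 10 epithelial markers listed, 6 had a higher and 4 a lower mean in white adipose. Krt18, Epcam, Cdx2 and Vil1 are named here after their values were seen. Adipocyte markers had 7 higher and 2 lower means in white adipose among 9 measured of 10, with 0 at an unadjusted p under 0.05 (limma). On the non-adipose arrays 1, 2 and 3 these markers averaged 5.59, 5.56 and 5.63, and on the white adipose arrays 5.42, 5.50 and 5.88. Over all arrays Adipoq was at 4.10 to 4.27 and Fabp4 at 5.78 to 7.86, both named after their values were seen. Adipoq differed by 0.028 (SE 0.067) and Fabp4 by -0.43 (SE 0.55). White adipose replicate 1 stood apart in skin epithelium markers: the mean of the 7 measured of 8 was 8.97 there, 5.26 and 5.36 in the other white adipose tumours, and 5.30 to 6.10 in the non-adipose tumours. Skeletal muscle markers averaged 6.13, 5.42 and 6.63 in non-adipose replicates 1, 2 and 3 and 5.44 to 5.54 in white adipose, with 13 of 14 lower in white adipose and 1 at an unadjusted p under 0.05 (limma). Immediate early genes were lower in white adipose for 15 of 15 measured, 8 of them at an unadjusted p under 0.05 (limma; 3.79% of all genes), and their array means were 7.67, 7.07 and 7.12 in white adipose replicates 1, 2 and 3 against 7.73 to 8.0 in non-adipose. Proliferation genes were lower for 9 of 9 measured, 0 at an unadjusted p under 0.05 (limma), and averaged 9.49, 9.52 and 9.16 in non-adipose and 9.38, 9.06 and 9.23 in white adipose. In whole tumours, fewer cells of a type and less RNA per cell cannot be told apart.

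RefSeq promoters of build GRCm38.p6, covering 250 bases before the start and 50 after it, were held for 54 of the 66 members. They were searched on both strands for the heat shock element, written as GAANNTTCNNGAA or TTCNNGAANNTTC for 3 units and GAANNTTC for 2 units, and for the endoplasmic reticulum stress response element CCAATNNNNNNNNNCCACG. Any match to 3 units also holds the shorter motif. The 3-unit motif was in 4 of the 54 members (Dnajb6, Hspd1, Hspe1 and Hsph1), or 7.41%, against 0.662% of all 27025 genes in the promoter table. The 2-unit motif was in 13 of 54 members, or 24.1%, against 9.04% of all genes. The endoplasmic reticulum element was in 3 members (Hspa5, Hsp90b1 and Dnajc3), or 5.56%, against 0.137% of all genes. A match describes letters, not a bound site.

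The windows printed here are those of the members whose array values are set side by side below. Hspa1a and Hspa1b, the stress-inducible Hsp70 genes, lie at chr17:34972157-34972406 and chr17:34959239-34959488 (minus strand, the 250 bases before each start); their windows differ at 3 of 250 bases, and capitals mark the 2-unit motif. The Hspe1 window, chr1:55088053-55088082 (plus strand), lies between the starts of Hspe1 and one of the starts of Hspd1, which are 216 bases apart and run in opposite directions. The other Hspd1 start lies 95 bases past the Hspe1 start, so the window is downstream of it. Capitals mark overlapping matches to the 3-unit motif.
Hspa1a: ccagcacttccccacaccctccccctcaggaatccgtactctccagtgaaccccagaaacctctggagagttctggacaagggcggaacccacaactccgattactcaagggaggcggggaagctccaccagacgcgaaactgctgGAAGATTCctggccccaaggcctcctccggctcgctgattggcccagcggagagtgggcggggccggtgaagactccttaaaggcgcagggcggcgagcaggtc
Hspa1b: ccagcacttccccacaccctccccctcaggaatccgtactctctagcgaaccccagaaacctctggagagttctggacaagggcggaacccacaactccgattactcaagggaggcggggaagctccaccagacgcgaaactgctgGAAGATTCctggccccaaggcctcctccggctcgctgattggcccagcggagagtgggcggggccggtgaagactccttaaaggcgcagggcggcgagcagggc
Hspe1 and Hspd1: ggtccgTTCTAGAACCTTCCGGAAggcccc

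The windows of the 3 members with the endoplasmic reticulum element are chr2:34771970-34772059 for Hspa5 (plus strand), chr10:86705525-86705669 for Hsp90b1 (minus strand) and chr14:118937812-118937861 for Dnajc3 (plus strand). Capitals mark the element, which Hsp90b1 carries once on each strand.
Hspa5: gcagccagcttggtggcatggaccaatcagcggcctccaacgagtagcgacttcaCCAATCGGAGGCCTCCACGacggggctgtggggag
Hsp90b1: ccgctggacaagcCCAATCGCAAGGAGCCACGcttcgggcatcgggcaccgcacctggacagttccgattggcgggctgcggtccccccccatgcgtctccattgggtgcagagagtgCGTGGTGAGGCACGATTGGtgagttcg
Dnajc3: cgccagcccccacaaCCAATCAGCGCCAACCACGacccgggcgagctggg

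No heat shock or DnaJ gene passed the test for a difference between tumours of white adipose and non-adipose sites. By limma, 0 of 66 members passed an adjusted p of 0.05, as did 0 of all genes (0% called), and the smallest adjusted p of a member was 0.936. At an unadjusted p under 0.05 limma called 0 members, where 3.79% of all genes were called. Groups did not overlap for 2 members, Hspa8 and Dnajc27 (the latter named after its values were seen), both lower in white adipose. They were 3.03% of the members, against 3.97% of all genes without overlap in that direction. Means were higher in white adipose for 29 members (43.9%, against 49.7% of all genes) and lower for 37, and the median difference was -0.014, against -0.00043 over all genes. The 95% interval of the difference lay inside a 2-fold change in either direction for 64 of 66 members (97% of them, 96.6% of all genes); Hspa1a and Hspa1b were the exceptions. The count at an unadjusted p under 0.05 became 4 members without white adipose replicate 1 (Dnajc5, Hspb8, Hspa5 and Dnajb7, 8.12% of all genes called) and 3 without non-adipose replicate 3 (Hspb1, Dnaja4 and Dnajc25, 5.29% of all genes called). It was 1 member when non-adipose replicate 1 (Hspe1, 2.95% of all genes called), non-adipose replicate 2 (Dnajc22, 4.04%) or white adipose replicate 2 (Dnajc28, 2.89%) was dropped, and 0 when white adipose replicate 3 was (3.04%). With array weights it was 4 (Dnajc5, Dnajc21, Dnajc5g and Hspb1, 7.31% of all genes called), and with probe sets averaged it was 1 (Hspa8, 3.83%). Hspb8 and Dnajb7 are named here after their values were seen.

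**Figure D1:**
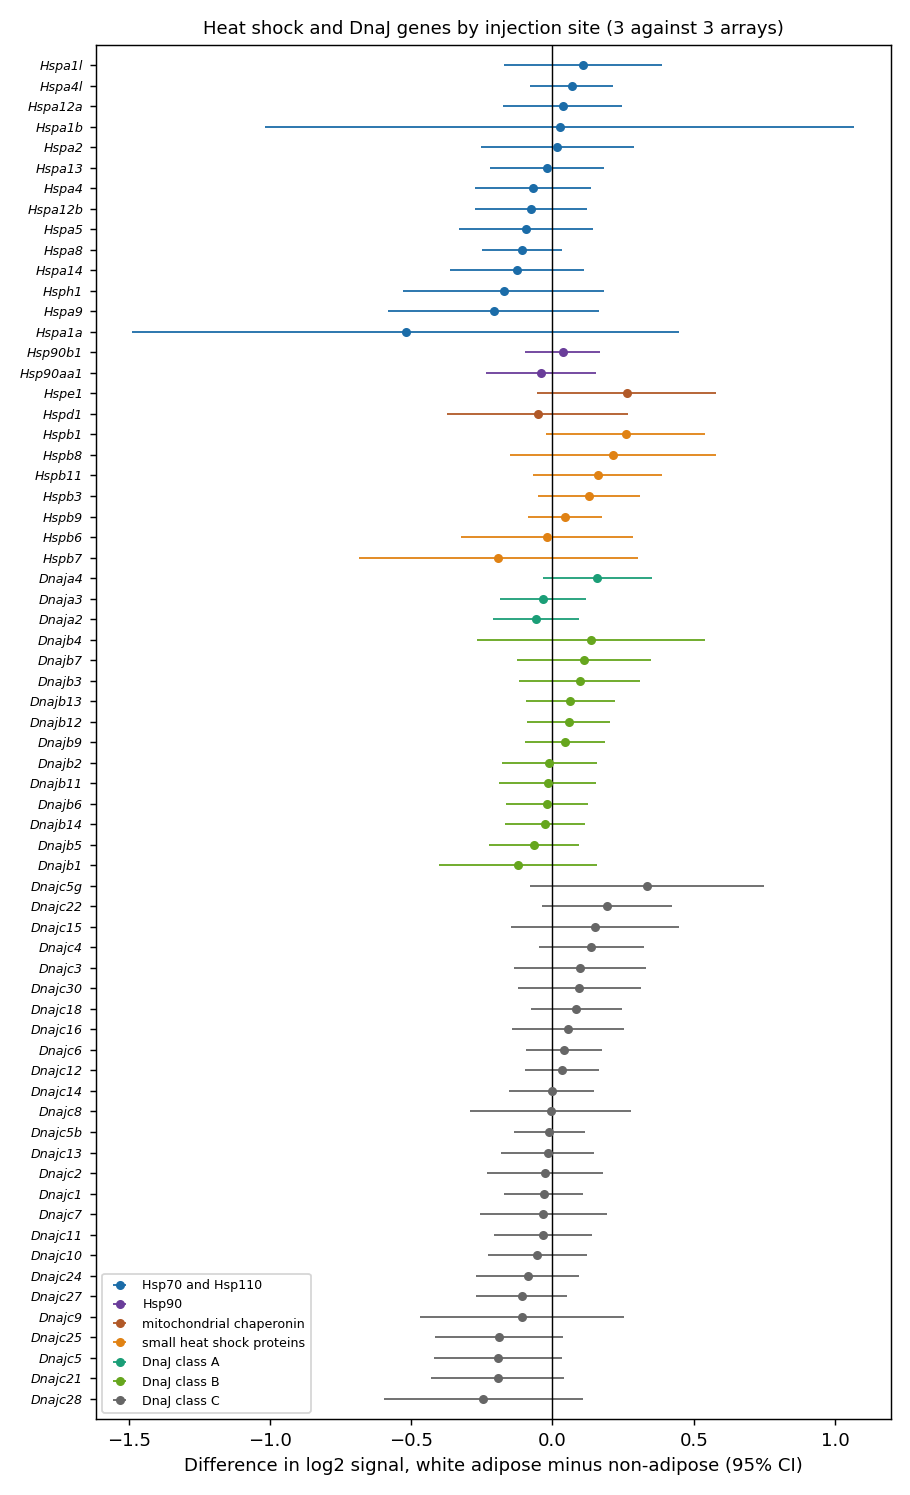
Difference in log2 signal, white adipose minus non-adipose, for each of the 66 members, coloured by subfamily, with limma's 95% confidence interval (3 arrays per group). Every interval crosses 0, and the widest are those of Hspa1a and Hspa1b.

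Among the Hsp70 genes the inducible pair varied most between tumours. Hspa1a had log2 signals of 7.84, 7.85 and 8.20 in non-adipose replicates 1, 2 and 3 and 7.93, 6.50 and 7.91 in white adipose replicates 1, 2 and 3. White adipose replicate 2 was thus the low array, and the other white adipose tumours lay inside the non-adipose range. The difference was -0.52 (SE 0.40, limma adjusted p = 0.936) and -0.046 without that array. Hspa1b had signals of 9.22, 8.78 and 9.32 in non-adipose and 10.02, 8.29 and 9.08 in white adipose tumours. The white adipose group held both the highest and the lowest array of the series for this gene. Its difference of 0.026 (SE 0.43, adjusted p = 0.996 by limma) became -0.42 when white adipose replicate 1 was left out. It was 0.45 when white adipose replicate 2 was left out and -0.14 with non-adipose replicate 2 left out. White adipose replicate 1, the high array, is the one with skin epithelium markers at 8.97; their part in the Hspa1b value was not tested. Ranges over the 6 arrays were 1.71 for Hspa1a and 1.73 for Hspa1b, against a median of 0.28 over the members and 0.35 over all genes, and they were the only members with a range above 1 (3.03% of members, 4.88% of all genes). Hspa1a and Hspa1b are near-identical copies, so each probe set can also bind the other's transcript and their separate values are uncertain.

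Hspa8 encodes the constitutive cytosolic Hsp70. Its signals were 11.87, 11.92 and 11.96 in non-adipose and 11.77, 11.84 and 11.81 in white adipose tumours, so that all 3 white adipose tumours lay below all 3 non-adipose tumours. The difference was small, -0.11 (SE 0.059, 95% interval -0.25 to 0.035, adjusted p = 0.936 by limma). The gene had 4 probe sets, and the others differed by -0.25, -0.25 and -0.23, with 2 of them nearly identical in value. With the mean of all 4 in place of the brightest, the difference was -0.21 (SE 0.065, limma adjusted p = 0.938).

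Hspa9 encodes the mitochondrial Hsp70. It was at 11.34, 10.96 and 11.07 in non-adipose and 11.10, 10.64 and 11.00 in white adipose tumours, with white adipose replicate 2 lowest and the groups overlapping. The difference was -0.21 (SE 0.15), -0.073 without white adipose replicate 2. Hsph1, the inducible Hsp110 gene, was almost level on 5 arrays, at 9.04, 9.02 and 9.04 in non-adipose tumours and 9.02 and 9.04 in white adipose replicates 1 and 3. White adipose replicate 2 was at 8.52, and the difference of -0.17 (SE 0.15) was -0.0033 without it. Hspa1l, the Hsp70-like gene beside Hspa1a, had the highest difference of the subfamily, 0.11 (SE 0.11). Its signals were 5.30 to 5.64 in non-adipose and 5.51 to 5.75 in white adipose tumours. With non-adipose replicate 3 left out the Hspa1l difference was 0.017, and with white adipose replicate 1 left out it was 0.027; a second, dimmer probe set differed by 0.21. Of the 14 Hsp70 and Hsp110 genes, 5 had a higher and 9 a lower mean in white adipose, with a median difference of -0.072.

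The 9 measured members of a list of heat shock response genes (Hspa1a, Hspa1b, Hspa8, Hsph1, Hsp90aa1, Dnajb1, Hspb1, Hspd1 and Hspe1) were divided between the sites: 3 had a higher and 6 a lower mean in white adipose. Without the mainly constitutive Hspa8, left out after the data were seen, 3 of 8 were higher and 5 lower. White adipose replicate 2 was the lowest array for 5 of the 9, namely Hspa1a, Hspa1b, Hsph1, Hsp90aa1 and Dnajb1. Over all 66 members this array was lowest for 25, or 37.9%, whereas it was lowest for 15.2% of all genes. The median deviation from the gene mean on this array was -0.031 over the 66 members and 0.0062 over all genes. White adipose replicate 3 was lowest for 1 member (1.52%, against 15.6% of all genes) and white adipose replicate 1 for 5 (7.58%, against 21.3%). Non-adipose replicates 1, 2 and 3 were lowest for 13, 10 and 11 members (19.7%, 15.2% and 16.7%). Their shares over all genes were 16.5%, 14.6% and 15.4%. The median deviation of the 9 heat shock response members from their gene means was -0.15 in white adipose replicate 2 and 0.082 and 0.069 in white adipose replicates 1 and 3, and it lay between -0.036 and 0.099 in the non-adipose tumours. Immediate early genes averaged 7.07 in white adipose replicate 2 and 7.12 in white adipose replicate 3, and smooth muscle and pericyte markers 6.62 in replicate 2 against 7.44 and 6.75 in replicates 1 and 3. Proliferation genes were also lowest in white adipose replicate 2, at 9.06. The part of these lists in the low heat shock values was not tested.

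**Figure D2:**
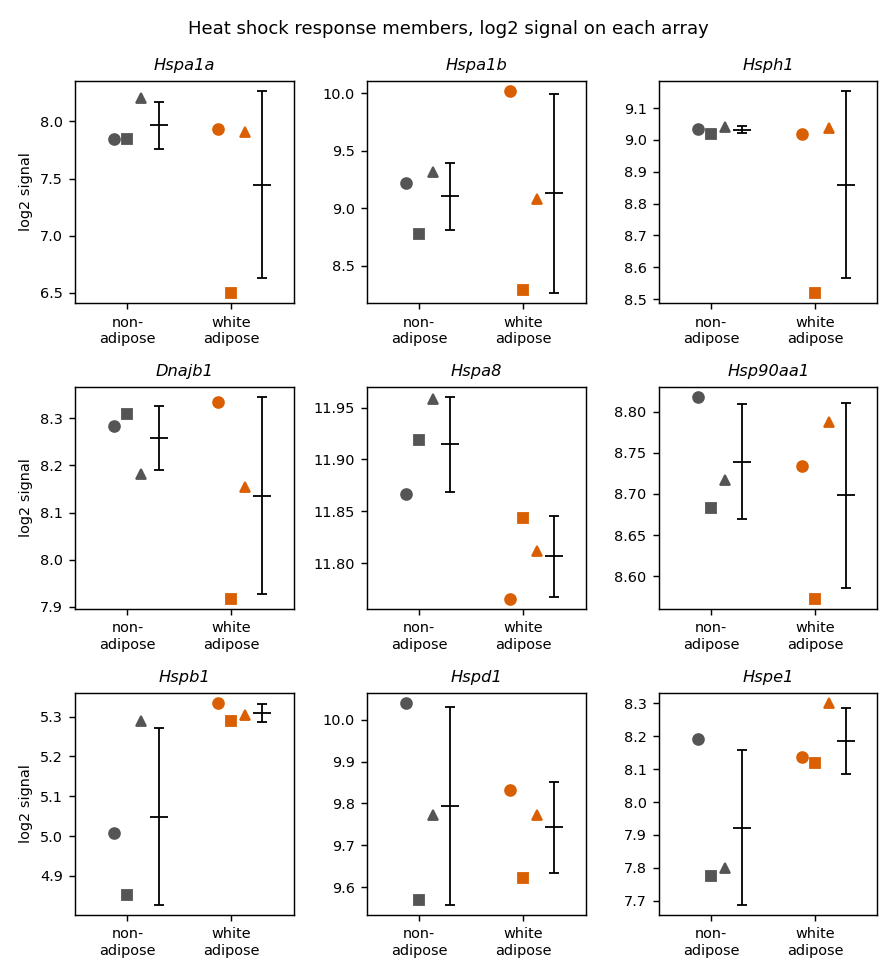
Log2 signal on each array for the 9 measured heat shock response members; circles, squares and triangles are replicates 1, 2 and 3, and the bar beside each group is its mean and SD (n = 3). Vertical axes differ between panels and do not start at 0. The square of the white adipose group is the lowest point for Hspa1a (6.50), Hspa1b (8.29), Hsph1 (8.52), Dnajb1 and Hsp90aa1.

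Both measured Hsp90 genes had a difference between sites of under 0.05 in size. Hsp90ab1 was not among the measured members. Hsp90aa1, the inducible cytosolic Hsp90, was at 8.82, 8.68 and 8.72 in non-adipose and 8.73, 8.57 and 8.79 in white adipose tumours, a difference of -0.041 (SE 0.080) that was 0.022 without white adipose replicate 2. Hsp90b1, the Hsp90 of the endoplasmic reticulum, was at 11.94, 11.93 and 11.92 in non-adipose and 11.95, 11.94 and 12.01 in white adipose tumours. Its signal covered only 0.09 over the 6 arrays, and the difference was 0.037 (SE 0.054, 95% interval -0.095 to 0.17).

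Hspe1 and Hspd1 encode the lid and the chamber of the mitochondrial chaperonin and share the window printed above. Hspe1 was at 8.19, 7.78 and 7.80 in non-adipose and 8.14, 8.12 and 8.30 in white adipose tumours. Non-adipose replicate 1 lay among the white adipose tumours, and the difference was 0.26 (SE 0.13, adjusted p = 0.936 by limma), 0.40 without that array. Hspd1 was at 10.04, 9.57 and 9.77 in non-adipose and 9.83, 9.62 and 9.77 in white adipose tumours. The groups overlapped throughout, with a difference of -0.052 (SE 0.13). It became 0.071 without non-adipose replicate 1, the highest array. Both genes were highest or next to highest in non-adipose replicate 1 and lowest in non-adipose replicate 2; whether their differences between sites differ was not tested. Of the 7 measured members on a list of mitochondrial genes, 3 had a higher and 4 a lower mean in white adipose.

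Small heat shock protein genes had higher means in white adipose for 5 of 7 members. The median difference was 0.13, with 0 at an unadjusted p under 0.05 by limma. With only genes above the median signal, 3 of these members were left, with a median difference of 0.045. Hspb1, which encodes the stress-inducible chaperone Hsp27, was at 5.01, 4.85 and 5.29 in non-adipose and 5.33, 5.29 and 5.30 in white adipose tumours. On this probe set, at percentile 34 of all genes, the white adipose tumours were closely alike, and non-adipose replicate 3 equalled the lowest of them. The difference was 0.26 (SE 0.12, limma adjusted p = 0.936). A second Hspb1 probe set, of nearly the same mean signal (5.16 against 5.18), differed by 0.045. It was at 4.98, 4.84 and 5.59 in non-adipose and 5.73, 4.95 and 4.87 in white adipose tumours, which were not alike on it. Hspb7, a small heat shock protein gene of heart and skeletal muscle, was at 5.75, 5.35 and 5.75 in non-adipose and 5.71, 5.03 and 5.53 in white adipose tumours. White adipose replicate 2 was lowest and non-adipose replicate 2 next, and the difference of -0.19 (SE 0.20) was 0.0041 without white adipose replicate 2. Non-adipose replicate 2 was also the non-adipose tumour with the lowest skeletal muscle markers (5.42), whereas those markers were level over the white adipose tumours; their part in the Hspb7 values was not tested. The 4 measured members of the muscle-rich group (Hspb3, Hspb6, Hspb7 and Hspb8) were divided, with 2 higher and 2 lower.

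DnaJ class A proteins, which keep the full domain order of bacterial DnaJ, had 3 measured members. Dnaja4 was at 6.48, 6.45 and 6.68 in non-adipose and 6.68, 6.73 and 6.68 in white adipose tumours. Non-adipose replicate 3 met the white adipose values, and the difference was 0.16 (SE 0.079, adjusted p = 0.936 by limma). Dnaja2 was at 9.90, 9.84 and 9.77 in non-adipose and 9.76, 9.75 and 9.83 in white adipose tumours, a difference of -0.058 (SE 0.063).

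Class B proteins carry the J domain at the amino end followed by a glycine-rich stretch; 6 of their 12 genes had a higher and 6 a lower mean in white adipose. Dnajb1, the main inducible partner of cytosolic Hsp70, was at 8.28, 8.31 and 8.18 in non-adipose and 8.33, 7.92 and 8.15 in white adipose tumours. White adipose replicate 1 was the highest array and replicate 2 the lowest. The difference of -0.12 (SE 0.11) was -0.013 without white adipose replicate 2. Dnajb4, a close relative of Dnajb1, was at 6.77, 6.78 and 6.76 in non-adipose and 7.29, 6.66 and 6.77 in white adipose tumours. Only white adipose replicate 1, the array with high skin epithelium markers, stood above the rest, and the difference of 0.14 (SE 0.17) was -0.056 without it; the part of skin epithelium in that value was not tested.

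Class C proteins share the J domain and little else. Of 26 genes, 10 had a higher and 16 a lower mean in white adipose, with a median difference of -0.013. Dnajc5, the cysteine string protein of secretory vesicles, was at 8.14, 8.11 and 8.22 in non-adipose and 8.14, 7.87 and 7.88 in white adipose tumours. White adipose replicate 1 lay among the non-adipose tumours while replicates 2 and 3 were below them all, and the difference of -0.19 (SE 0.093, limma adjusted p = 0.936) was -0.28 without replicate 1. Dnajc21, which acts in ribosome assembly, was at 8.83, 8.59 and 8.57 in non-adipose and 8.57, 8.39 and 8.45 in white adipose tumours. The highest white adipose tumour just met the lowest non-adipose one, and the difference was -0.19 (SE 0.096), -0.11 without non-adipose replicate 1. Dnajc22 differed by 0.19 (SE 0.094), with 6.98 to 7.25 in non-adipose and 7.23 to 7.43 in white adipose tumours. Dnajc25 differed by -0.19 (SE 0.093), with 6.93 to 7.18 in non-adipose and 6.76 to 6.96 in white adipose tumours. The groups overlapped for both. The highest difference of the class was that of Dnajc5g, 0.34 (SE 0.17), on a dim probe set at percentile 13 of all genes: it was at 3.56, 3.82 and 3.95 in non-adipose and 3.92, 3.98 and 4.44 in white adipose tumours. The lowest was that of Dnajc28, -0.24 (SE 0.15), at 5.55, 5.66 and 5.74 in non-adipose and 5.12, 5.67 and 5.41 in white adipose tumours. For Dnajc5g a single white adipose tumour, replicate 3, lay far above the rest, and the difference was 0.17 without it. For Dnajc28 the white adipose tumours were spread out. Replicates 1 and 3 of that site lay below every non-adipose tumour, and replicate 2 lay inside the non-adipose range. Dropping replicate 1, 2 or 3 of that site gave a Dnajc28 difference of -0.10, -0.38 or -0.25.

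Listed members of the endoplasmic reticulum showed small differences in both directions. Of the 8 genes on this list, 3 had a higher and 5 a lower mean in white adipose, with a median difference of -0.017. The list need not hold every member of that compartment. Hspa5, the Hsp70 of this compartment (BiP), was at 9.97, 9.93 and 9.999 in non-adipose and 10.06, 9.71 and 9.85 in white adipose tumours. White adipose replicate 1 was the highest array and replicate 2 the lowest, and the difference was -0.094 (SE 0.098), -0.19 without white adipose replicate 1 and -0.011 without replicate 2. Dnajc3, a cochaperone of Hspa5 named here for the element in its promoter after its values were seen, was at 9.46, 9.55 and 9.66 in non-adipose and 9.54, 9.61 and 9.81 in white adipose tumours, a difference of 0.099 (SE 0.096) that was 0.019 without white adipose replicate 3. The lowest array differed among the 3 members with the endoplasmic reticulum element: white adipose replicate 2 was lowest for Hspa5, non-adipose replicate 1 for Dnajc3 and non-adipose replicate 3 for Hsp90b1.

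**Figure D3:**
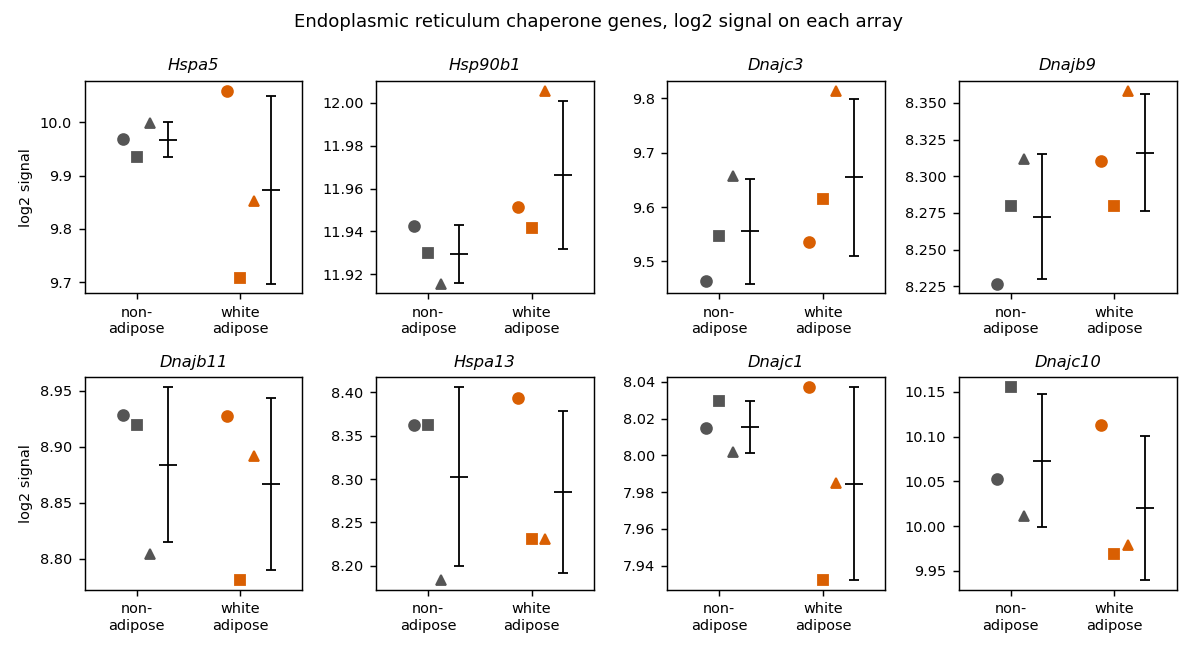
Log2 signal on each array for the 8 listed endoplasmic reticulum members. Circles, squares and triangles are replicates 1, 2 and 3, and the bar beside each group is its mean and SD (n = 3). Vertical axes differ between panels, cover fractions of a log2 unit and do not start at 0. The groups overlap in every panel.

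**Figure D4:**
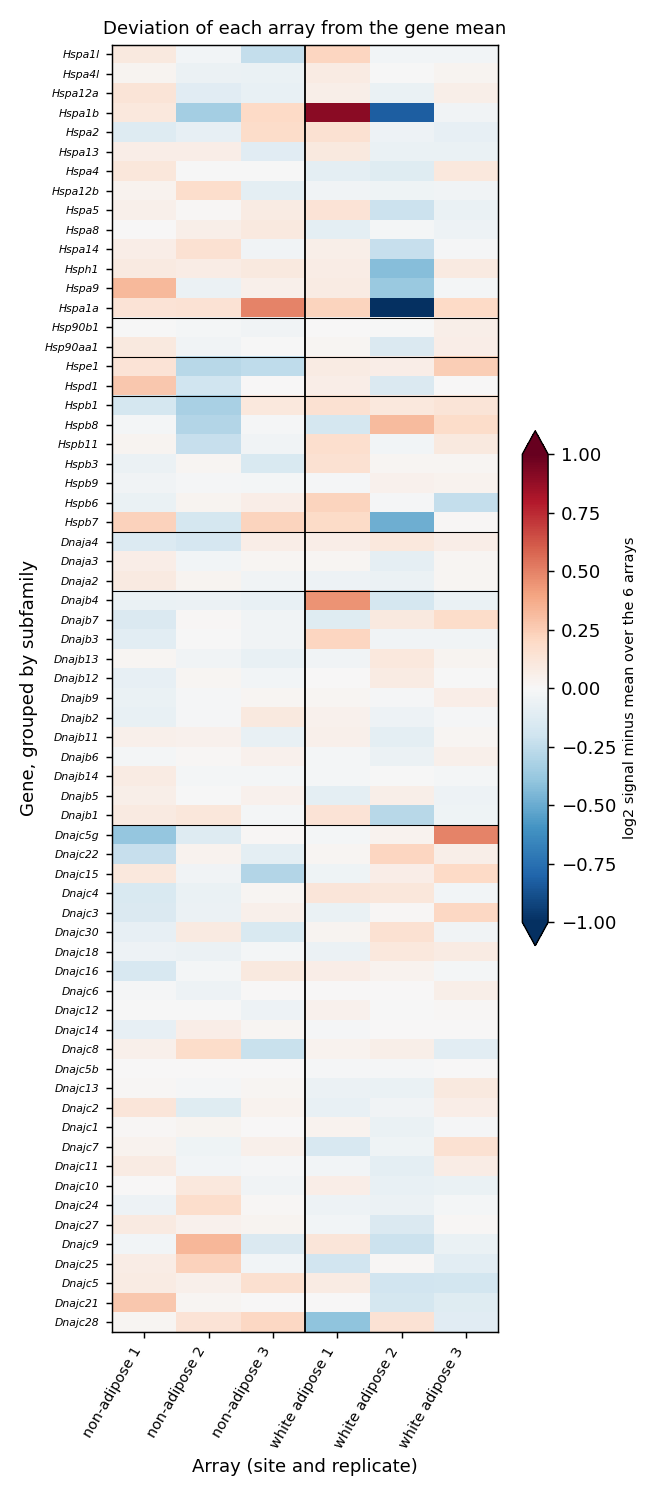
Deviation of each array's log2 signal from the gene's mean over the 6 arrays for all 66 members, grouped by subfamily; colours saturate at 1 in either direction. The strongest colours are Hspa1b in white adipose replicates 1 and 2 and Hspa1a in white adipose replicate 2, and no column block separates the sites.

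Genes that work with these chaperones gave the same count of calls. In each of 9 further lists, of 2 to 21 measured genes, limma called 0 genes at an adjusted p of 0.05 (0% of all genes called). It also called 0 in each at an unadjusted p under 0.05, where 3.79% of all genes were called. Of the 9 subunits of the TRiC chaperonin, the cytosolic folding chamber, 1 had a higher and 8 a lower mean in white adipose. Their median difference was -0.069, and Cct6a differed by -0.15 (SE 0.070) and Cct6b by 0.15 (SE 0.089). Cochaperones of Hsp90 and Hsp70 without a J domain had 6 higher and 15 lower means among 21 measured. In that list Tomm34 differed by -0.15 (SE 0.063) and Fkbp5, an immunophilin induced by glucocorticoids, by -0.19 (SE 0.080). Nucleotide exchange factors of Hsp70 were divided, 5 higher and 6 lower, with Hyou1 at 0.13 (SE 0.11) and Bag1 at -0.085 (SE 0.073). Of 5 heat shock factor and factor-binding genes measured, 2 were higher and 3 lower. Hsf5 differed by 0.15 (SE 0.10) and Hsf4 by 0.025 (SE 0.13), and Hsf1 is not analysed here. Other heat shock response genes had 3 higher and 4 lower means, among them Stip1, which links Hsp70 to Hsp90, at -0.094 (SE 0.077) and the Hsp90 activator Ahsa1 at -0.066 (SE 0.074). Other endoplasmic reticulum stress genes had 11 higher and 3 lower means and a median difference of 0.040. Among them the factor Atf3, also an immediate early gene, was at -0.46 (SE 0.19) and Creld2 at 0.19 (SE 0.083). Prefoldin subunits, which hand substrates to TRiC, had 2 higher and 3 lower means, with Pfdn5 at 0.13 (SE 0.071) and Pfdn6 at -0.078 (SE 0.065). The lens and muscle chaperones Cryab and Cryaa differed by 0.034 (SE 0.24) and -0.010 (SE 0.072), and the J-domain genes Sec63 and Hscb by 0.021 (SE 0.085) and -0.025 (SE 0.11).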

How the data were processed

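Total RNA from 6 tumours was labelled with the WT PLUS kit and hybridised to Affymetrix arrays, per the labels' protocols. The authors deposited log2 signals for 41345 probe sets, from 0.973 to 13.6, with array medians of 5.66 to 5.69; the log2 scale was inferred from these values. The submitters' processing notes name Affymetrix Expression Console. For its version, background correction and normalization: not given in the sources used here. Only the 23521 probe sets with exactly 1 symbol in the platform annotation were named, and the one with the highest mean was kept per gene. All 66 members matched RefSeq by Entrez identifier. No detection calls, slides or scan dates were used.

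White adipose was compared with non-adipose by limma 3.58.1 in R 4.3.3 over all 22180 genes (lmFit, eBayes, 6 arrays, no covariate), with Benjamini-Hochberg adjustment over all genes; the script was tested on simulated data. The median SE of a difference was 0.0972 over all genes, and the number of arrays limits this precision. Members and lists were chosen with earlier results of these data known. Values on every array, or the range in each group, are given for the 8 members of smallest p, 12 core chaperone genes and the extremes of each subfamily; from other lists, the differences of the 2 genes of smallest p. Alternatives were an intensity trend, robust variances, array scaling, a dim-gene filter, averaged probe sets, array weights, a replicate block and leaving out each array.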

Additional observations from a re-analysis of the deposited data

How the results depend on the processing

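In the 14 alternatives run, limma called 0 members at an adjusted p of 0.05, and the smallest adjusted p of a named member was 0.556. The count at an unadjusted p under 0.05, which was 0, became 1 with the mean of probe sets, 4 with array weights and 3 with the replicate block (4.87% of all genes), and ran from 0 to 4 with 1 array left out. With only genes above the median signal, 17 of the 51 members left had a higher mean in white adipose. The share among all genes passing that filter was not computed, so this count has no background beside it. Of 23 members named by rule, 14 had the same direction in all 14 alternatives. A further 4 (Hspb1, Dnajc5g, Dnajc28 and Hspa1l) had it in the 13 run for them, since the filter on dim genes left them out. The intensity trend, robust variances, replicate block and dim-gene filter cannot change a member's difference, so these runs do not test its direction. Averaging probe sets can change it only for the 5 members with several probe sets. Hspa1b became -0.22 with array weights, and with 1 array left out ran from -0.42 to 0.45. In the same way Hspd1 ran from -0.16 to 0.071, Dnajb4 from -0.056 to 0.26, Hsp90aa1 from -0.086 to 0.022 and Hspb7 from -0.33 to 0.0041; the cause was not tested. For equal replicate numbers 1, 2 and 3, deviations from the group means correlated at 0.14, 0.064 and 0.064 over genes. For unlike numbers the correlation was 0.086 between non-adipose replicate 3 and white adipose replicate 2. The other unlike pairs ran from -0.18 to -0.018. With 3 tumours per group these values cannot settle whether equal numbers mark paired tumours. Dim probe sets have no detection call, and 15 members lay below percentile 50 of all genes in mean signal.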
